A study of Manihot esculenta with 9 samples.

Results

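The DUF1442 genes of cassava were examined in mature leaves, with Manes.02G201000 and Manes.S098500 in front. Members were all genes of the authors' deposited expression table whose description contains DUF1442, which gave 9 of 33033 genes. The front genes were chosen by their high level in the libraries treated with abscisic acid (ABA). Their values in comparisons that use the ABA libraries are therefore given as a description, with no test. The other members were taken by their description, but the family was picked with earlier results of these data known. Tests of the other members are therefore not independent of that choice. The libraries came from wild-type cassava seedlings grown from stem cuttings in sterile bottles of MS medium for 60 days. They form 3 groups of 3 libraries, namely ABA (50 μmol/L), PEG (7% PEG6000) and the MS control in medium without either agent, with leaves taken 48 h after the additions. The replicates are described as biological, but the number of plants behind a library is not stated, so the p-values below measure the spread between these libraries.

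DUF1442 is a domain of unknown function found in plant proteins, and no molecular role is assigned to these genes in the deposited table. ABA is the hormone that accumulates in plants short of water, closes stomata and switches on protective genes. It is sensed by PYR/PYL receptors, which then hold back clade A protein phosphatases 2C (PP2Cs) and so release SnRK2 kinases and the bZIP transcription factors that these kinases activate. PEG6000 is an osmotic agent that withdraws water from the medium.

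Total counts were 14850183 to 15690202 under ABA, 15847859 to 17108746 under PEG and 13923803 to 16378389 in the MS control. Counts were tested with edgeR's quasi-likelihood test on the 23984 genes that passed its filter on low counts, and genes with a Benjamini-Hochberg adjusted p under 0.05 over this set are described as rising or falling. FPKM values, in which reads are scaled by gene length and library size, are those of the authors, given as mean ± SD of 3 libraries. By this test 66.3% of the genes changed under ABA and 70.7% under PEG against the MS control. Photosynthesis genes that mark leaves (light-harvesting proteins and Rubisco small subunits, 12 genes, none of them without reads) summed to 1016 to 1129 FPKM under ABA, 8661 to 9041 under PEG and 3868 to 4432 in the MS control. The 7 root marker genes summed to at most 0.52 FPKM in any library, and 3 of them had no read. In the PEG libraries 33 of 48 genes for LEA proteins and dehydrins, known for guarding drying cells, fell against the MS control and 8 rose. Of 75 tested genes with a word starting with cyclin in their description, 55 rose and 11 fell under PEG, and 44 rose and 9 fell under ABA. Every direction given for PEG takes the library labels as they stand, and an exchange of the PEG and MS control labels was not tested, so values of PEG against ABA are given as well.

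The members fell into groups by their nearest Arabidopsis gene in the deposited table. AT2G45360 was the nearest gene of 5 members (Manes.02G201000, Manes.S098500, Manes.02G221500, Manes.01G073600 and Manes.05G046400), AT5G62280 of 3 members (Manes.05G046300, Manes.06G137300 and Manes.14G033400) and AT3G60780 of Manes.02G033500. Positions are those of the deposited table, whose gene IDs match cassava genome V6.1 as used in the paper, while the build used for read mapping was not stated. Manes.02G201000 lies on chromosome 2 from 17792061 to 17793785, and Manes.02G221500 on the same chromosome from 30312258 to 30314189. Manes.S098500 lies on Scaffold01750 from 3769 to 6028, a sequence not placed on a chromosome that holds 1 gene of the table. The others are on chromosome 2 (Manes.02G033500, 2600895 to 2601947), chromosome 1 (Manes.01G073600, 19895356 to 19896382), chromosome 5 (Manes.05G046300, 3419972 to 3420742, and Manes.05G046400, 3422997 to 3424331), chromosome 6 (Manes.06G137300, 24264165 to 24264930) and chromosome 14 (Manes.14G033400, 2735358 to 2736106). Exons, introns and UTRs were not annotated in the sources used here.

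In Manes.02G201000, Manes.02G221500 and Manes.S098500 the gene span exceeded the length implied by counts and FPKM far more than in the other members with reads. This length is a back-calculation that takes the FPKM as scaled by full transcript length and total counts, which was not stated. The transcript lengths implied by counts and FPKM were 742, 771 and 741 bases, close to each other. Their genes spanned 1725, 1932 and 2260 bases, so that the span exceeded the implied length by 983, 1161 and 1519 bases. For the 5 other members with reads this excess was 82 for Manes.02G033500, 93 for Manes.01G073600, 89 for Manes.05G046400, 97 for Manes.06G137300 and 82 for Manes.05G046300. Manes.01G073600 and Manes.05G046400, with the same nearest Arabidopsis gene as the 3 leading genes, thus had a small excess, with implied lengths of 934 and 1246 bases. Manes.14G033400 had no read and no implied length.

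Manes.02G201000 was the most abundant member under ABA. It had 268, 256 and 252 FPKM in the ABA libraries (2958, 2981 and 2787 reads), 0.398, 0.315 and 0.425 FPKM in the PEG libraries (5, 4 and 5 reads) and 6.1, 5.62 and 5.35 FPKM in the MS control libraries (63, 62 and 65 reads). All ABA libraries were high and all PEG libraries lay below every MS control library, with no overlap between any of the groups. The ABA side of this follows from the choice of the gene. The share of all genes whose groups separate in this way was not counted, here or for the genes below. As 66.3% of all genes changed under ABA and 70.7% under PEG, lack of overlap is not read as particular to these genes. The group means were 259 ± 8.59 FPKM under ABA, 0.379 ± 0.0574 FPKM under PEG and 5.69 ± 0.380 FPKM in the MS control (SD, n = 3 each). By mean level among the 33033 genes of the table, Manes.02G201000 took place 221 under ABA, 24541 under PEG and 15095 in the MS control.

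Manes.S098500, the copy on the unplaced scaffold, followed the same order of groups at a lower level. Its values were 103, 101 and 111 FPKM under ABA (1134, 1174 and 1222 reads), 0.159, 0.0789 and 0.170 FPKM under PEG (2, 1 and 2 reads) and 1.55, 2.27 and 3.21 FPKM in the MS control (16, 25 and 39 reads). The groups did not overlap, and the ABA side of this again follows from the choice of the gene. Means were 105 ± 5.08 FPKM under ABA, 0.136 ± 0.05 FPKM under PEG and 2.34 ± 0.834 FPKM in the MS control (SD, n = 3 each).

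Manes.02G221500, which was not among the front genes, behaved like them. It had 110, 112 and 108 FPKM under ABA (1264, 1357 and 1247 reads), 0.0766, 0.152 and 0.164 FPKM under PEG (1, 2 and 2 reads) and 3.82, 2.62 and 3.17 FPKM in the MS control (41, 30 and 40 reads). The groups again did not overlap. Its means were 110 ± 1.84 FPKM under ABA, 0.131 ± 0.0472 FPKM under PEG and 3.20 ± 0.603 FPKM in the MS control (SD, n = 3 each).

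**Figure D1:**
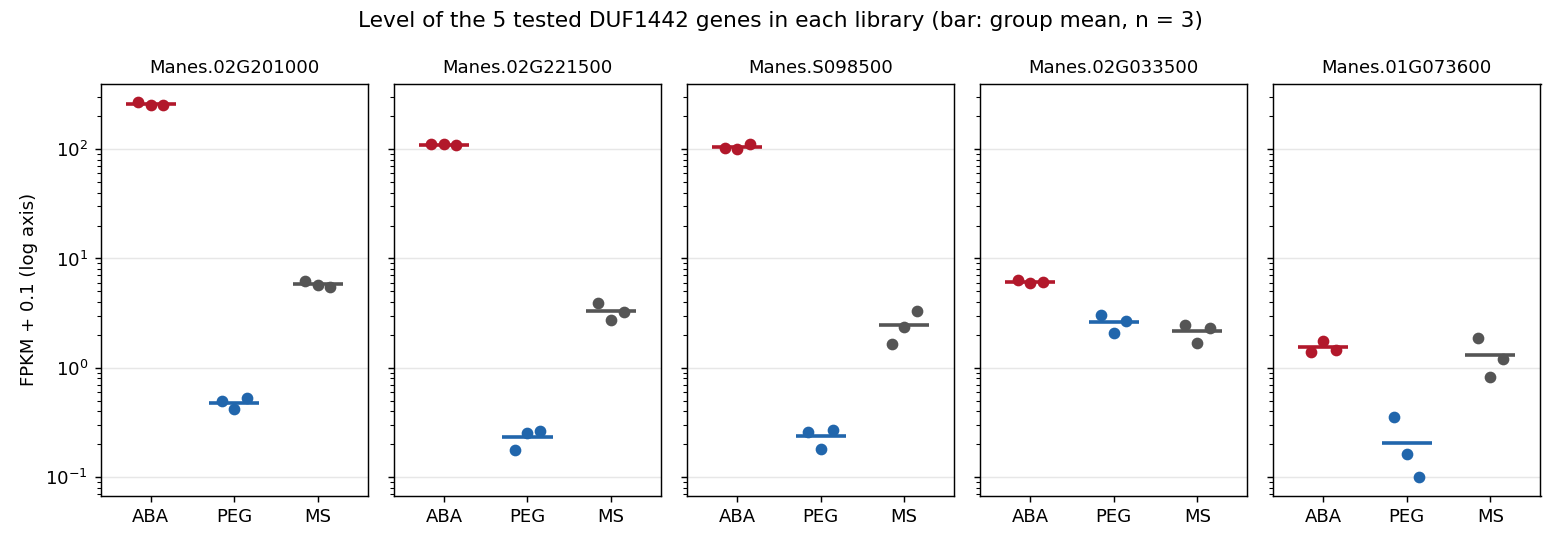
Each point is 1 library and each bar the mean of 3, for the 5 DUF1442 genes that passed the filter on low counts, with FPKM + 0.1 on a log axis and the groups ABA, PEG and MS from left to right. Manes.02G201000, Manes.02G221500 and Manes.S098500 lie above 100 FPKM in every ABA library and below 0.5 FPKM in every PEG library, while Manes.02G033500 and Manes.01G073600 stay under 7 FPKM throughout.

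Against the MS control, the fitted log2 fold change under ABA was 5.57 (standard error, SE, 0.06) for Manes.02G201000 and 5.52 (SE 0.14) for Manes.S098500, which is 47.6-fold for the first and 45.8-fold for the other. These values chose the genes, and they are given without a test. Ordered from the largest rise downwards among the 23984 genes, they stood at places 36 and 37. Manes.02G221500 rose by 5.17 on the log2 scale (SE 0.09, edgeR adjusted p = 1.61e-12), which is 36.0-fold and place 47. For orientation, 0.434% of all genes tested were at least 16-fold higher under ABA than in the MS control.

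The members outside this trio answered ABA far less. Manes.02G033500 had 6.31, 5.84 and 5.94 FPKM under ABA and 2.37, 1.59 and 2.20 FPKM in the MS control, with no overlap. It rose by 1.61 on the log2 scale (SE 0.17, edgeR adjusted p = 6.99e-06). Manes.01G073600 had 1.3, 1.64 and 1.36 FPKM under ABA and 1.77, 0.720 and 1.11 FPKM in the MS control, so that the MS control libraries lay on both sides of the ABA libraries. Its log2 fold change was 0.33 (SE 0.37, edgeR adjusted p = 0.444), which did not pass, and a change of either sign is within its error. Of the 3 members tested under ABA beside the front genes, 2 thus rose and none fell, against 32.9% of all genes that rose and 33.4% that fell.

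Under PEG the 3 leading genes were close to the detection limit and lay far below the MS control. Manes.02G201000 fell by 4.0 on the log2 scale (SE 0.12, edgeR adjusted p = 5.30e-11), or 15.99-fold. Manes.02G221500 fell by 4.64 (SE 0.24, edgeR adjusted p = 8.98e-09) and Manes.S098500 fell by 4.16 (SE 0.38, edgeR adjusted p = 1.32e-06). These falls rest on few reads, since the 3 PEG libraries together held 14 reads of Manes.02G201000 and 5 of each of the other genes, against 190, 111 and 80 in the MS control. The comparison shares its MS control libraries with that of ABA. With log2(FPKM + 1) in limma, where the added 1 exceeds the PEG levels, the log2 fold changes were -2.28 for Manes.02G201000, -1.88 for Manes.02G221500 and -1.53 for Manes.S098500, and all passed.

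Manes.01G073600 also fell under PEG. It had 0.253, 0.0626 and 0 FPKM in the PEG libraries (4, 1 and 0 reads) against 1.77, 0.720 and 1.11 FPKM in the MS control (23, 10 and 17 reads), with no overlap. Its log2 fold change was -3.49 (SE 0.61, edgeR adjusted p = 3.01e-04). The size of this fall depends on single libraries, as it was -4.97 without PEG replicate 1 and -2.98 without PEG replicate 3, and it was -0.97 with limma on log2(FPKM + 1). It passed in each of these settings. Manes.02G033500 had 2.92, 1.99 and 2.6 FPKM under PEG, which overlapped with the MS control libraries. The log2 fold change of Manes.02G033500 was 0.15 (SE 0.20, edgeR adjusted p = 0.511), which did not pass. Of the 5 members tested, 4 fell under PEG and none rose, against 35.1% of all genes that fell and 35.6% that rose. The leading genes among them may not be separate cases, as reads of 1 copy may have been counted for another. A fall of at least 8-fold, which these 4 members had, was seen in 1.43% of all genes tested. The median log2 fold change of the 5 members was -4.0, against 0.00 over all genes tested.

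**Figure D2:**
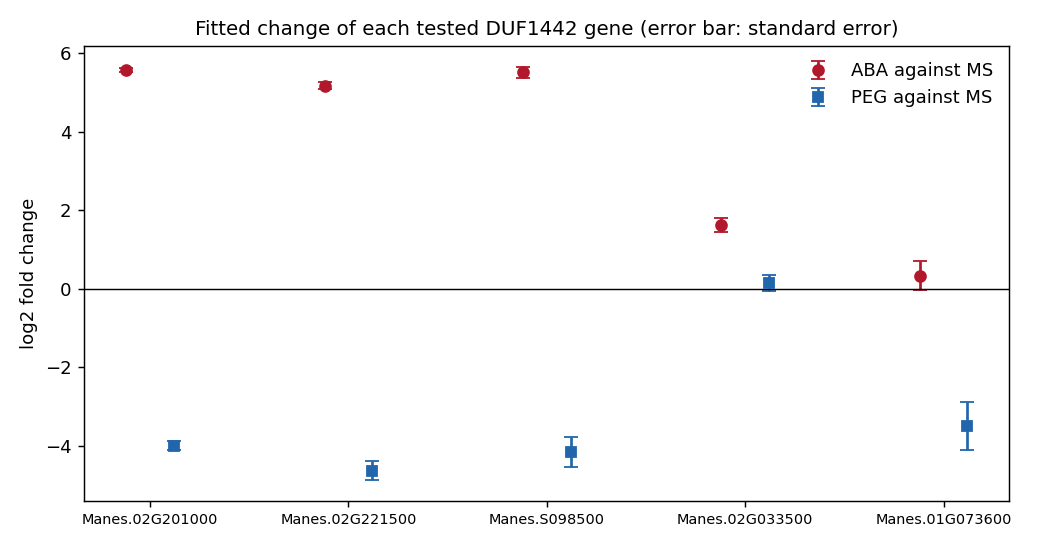
The y axis gives the fitted log2 fold change against the MS control for the 5 tested DUF1442 genes, with circles for ABA, squares for PEG and bars for the standard error. Manes.02G201000, Manes.02G221500 and Manes.S098500 lie above 5 for ABA and at -4.0 or below for PEG, Manes.02G033500 is above 0 for ABA and near 0 for PEG, and Manes.01G073600 is near 0 for ABA and at -3.49 for PEG.

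Set against ABA, the PEG libraries showed the widest gap. The log2 fold change of PEG against ABA was -9.57 for Manes.02G201000 and -9.68 for Manes.S098500, both given without a test. Manes.02G221500 was lower under PEG by a log2 value of -9.81 (SE 0.14, edgeR adjusted p = 5.70e-14). Ordered from the largest fall, these genes stood at places 9, 8 and 6 of the 23984 genes. The sizes and places rest on few reads, as the 3 PEG libraries together held 14 reads of Manes.02G201000 and 5 of each of the others. With log2(FPKM + 1) in limma the log2 fold changes were -7.56, -6.54 and -6.62 in the same order. Manes.01G073600 came to -3.83 (SE 0.58, edgeR adjusted p = 9.01e-05) and Manes.02G033500 to -1.46 (SE 0.17, edgeR adjusted p = 7.05e-06). All 3 members tested here beside the front genes were lower under PEG than under ABA, as were 35.6% of all genes. The ABA libraries therefore lay above both other groups for the trio and for Manes.02G033500, whichever of these groups is taken as the control.

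The remaining 4 members were at 0 or at a few reads in these leaves and did not pass the filter on low counts. Manes.05G046400 had 4 reads over the ABA libraries, 9 over the PEG libraries and 6 over the MS control libraries, and the groups overlapped. Manes.06G137300 had 7 reads over the ABA libraries, 2 over the PEG libraries and 0 over the MS control libraries, with 6 of the 7 in ABA replicate 3. For Manes.05G046300 the sole reads were 2 in MS control replicate 2. Manes.14G033400 had no read in any library. A count of 0 allows up to 3 reads, or 0.175 to 0.215 CPM in a library, so Manes.14G033400 was not detected at this depth rather than shown to be silent. All 3 members nearest to AT5G62280 belong to this group. In bulk leaf samples, fewer cells of a type and less RNA per cell cannot be told apart.

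The make-up of the DUF1442 level changed with the treatment. The summed level of the 9 members was 482 ± 6.75 FPKM under ABA, 3.46 ± 0.697 FPKM under PEG and 14.7 ± 1.33 FPKM in the MS control (SD, n = 3 each). The trio made up 98.4 ± 0.0659% of this sum under ABA, 19.0 ± 3.24% under PEG and 76.8 ± 3.48% in the MS control. The trio was taken as the 3 members with the highest mean FPKM over all libraries, a mean set mainly by the ABA values. Its high share under ABA therefore follows in part from that choice and is a description with no test. The 6 other members together had 7.77 ± 0.261 FPKM under ABA, 2.81 ± 0.653 FPKM under PEG and 3.43 ± 0.793 FPKM in the MS control. Manes.02G033500 led the family under PEG, with 72.4% of the summed mean level, against 1.25% under ABA and 14% in the MS control.

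**Figure D3:**
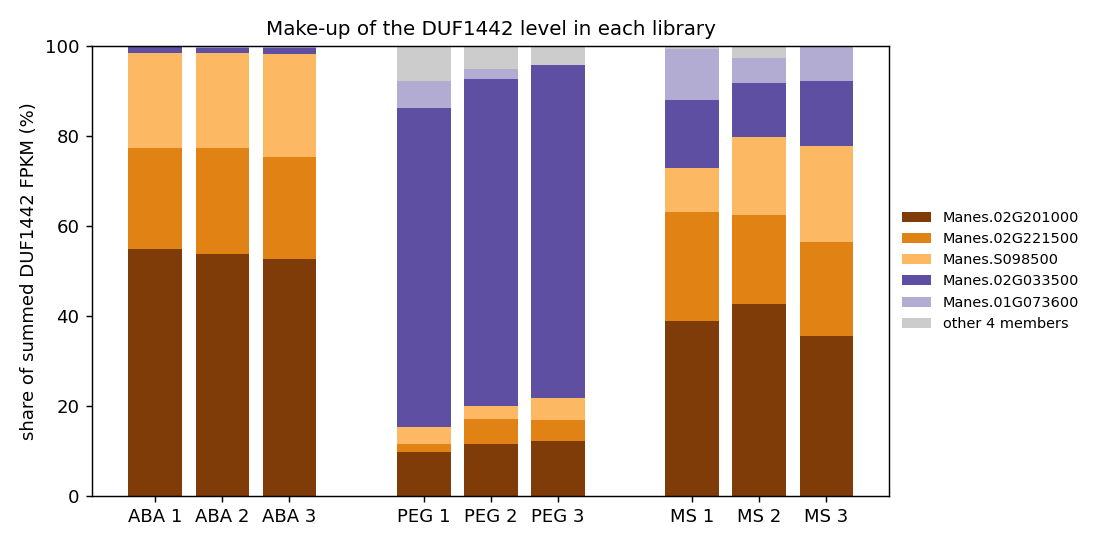
Each bar is 1 library, split by the share of each gene in the summed DUF1442 FPKM of that library (percent), with ABA, PEG and MS libraries from left to right. Manes.02G201000, Manes.02G221500 and Manes.S098500 fill 98.3 to 98.4% of the ABA bars, 15.4 to 21.6% of the PEG bars and 73.0 to 79.7% of the MS bars, and Manes.02G033500 fills most of each PEG bar.

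The order of the members by FPKM differed between the groups. Under ABA, Manes.02G201000 came first, at 252 to 268 FPKM. Manes.02G221500 (108 to 112 FPKM) and Manes.S098500 (101 to 111 FPKM) overlapped at the next place, ahead of Manes.02G033500 and Manes.01G073600. Under PEG, Manes.02G033500 was first with 1.99 to 2.92 FPKM and Manes.02G201000 was next with 0.315 to 0.425 FPKM, and the values of the other members overlapped. In the MS control, Manes.02G201000 was first again with 5.35 to 6.1 FPKM. Manes.02G221500 (2.62 to 3.82 FPKM), Manes.S098500 (1.55 to 3.21 FPKM), Manes.02G033500 (1.59 to 2.37 FPKM) and Manes.01G073600 (0.720 to 1.77 FPKM) followed, each overlapping with the next.

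The balance between the front copies is given for each group, with wide errors under PEG. As their implied lengths are 742 and 741 bases, reads can be set side by side. Of the reads of Manes.02G201000 and Manes.S098500 together, Manes.02G201000 held 71.2% under ABA (95% exact binomial interval 70.4 to 72.0%, 12256 reads), 73.7% under PEG (48.8 to 90.9%, 19 reads) and 70.4% in the MS control (64.5 to 75.8%, 270 reads). These intervals cover counting error alone. By library the share ran from 69.5 to 72.3% under ABA, from 71.4 to 80.0% under PEG and from 62.5 to 79.7% in the MS control. The difference of the log2(FPKM + 0.1) values of the copies averaged 1.04 under PEG and 1.3 in the MS control, a change of -0.26 (two-sided exact permutation test, p = 0.6, where 0.1 is the smallest that 3 libraries against 3 allow). This test cannot pass 0.05, and the added 0.1 is close to the PEG values of Manes.S098500, so it does not show that the balance was the same. In the ABA libraries this difference averaged 1.3. Set against Manes.02G221500, Manes.02G201000 held 69.3% of the reads under ABA (68.5 to 70.1%), 73.7% under PEG (48.8 to 90.9%) and 63.1% in the MS control (57.4 to 68.6%). By library this share ran from 68.7 to 70.1% under ABA and from 60.6 to 67.4% in the MS control, while the intervals of the summed reads overlapped. Manes.02G201000 was chosen by its ABA level, which favours a high share there, so this is a description with no test. The treatment of reads that match more than 1 copy during counting was not stated, and reads of 1 copy may have been counted for another.

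The genes next to the leading members on chromosome 2 did not reach changes of this size. Within 2 places of Manes.02G201000 or Manes.02G221500 lie 8 genes, the nearest of them 42317 bases away, and none overlaps these genes. The 7 of them that were tested had log2 fold changes of -1.48 to 0.30 under ABA and -0.30 to 1.32 under PEG against the MS control. Both loci have a gene for an NB-ARC protein, a class of disease resistance proteins, within 2 places, as do 1.51% of all genes. These NB-ARC genes, Manes.02G201200 and Manes.02G221300, moved the other way, with log2 fold changes of -1.48 and -1.19 under ABA and of 1.07 and 1.32 under PEG, and each of these passed the edgeR test (the highest adjusted p was 2.40e-04). Both were low, with means of 0.291 and 0.447 FPKM under ABA and 0.850 and 1.07 FPKM in the MS control. Over all genes tested, 33.4% fell under ABA and 35.6% rose under PEG. Other NB-ARC genes were not examined.

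The 6 members outside the trio lay in a different setting. Each of them has a gene for a leucine-rich repeat (LRR) protein kinase within 2 places, as do 1.95% of all genes. The table holds 3 genes described as ribosomal protein S13/S15, and each lies within 2 places of a DUF1442 gene, namely Manes.05G046400, Manes.06G137300 and Manes.14G033400. Manes.05G046300 and Manes.05G046400 are direct neighbours, 2254 bases apart, with different nearest Arabidopsis genes. These genes on chromosomes 5, 6 and 14 all stayed near 0, while the LRR kinase genes beside them rose under PEG, by 2.04 on the log2 scale beside Manes.06G137300, 2.06 beside Manes.14G033400 and 0.92 for the gene shared by Manes.05G046300 and Manes.05G046400 (edgeR adjusted p = 3.80e-09, 5.08e-06 and 0.00165). Under PEG the LRR kinase gene beside Manes.01G073600 rose by 0.70 (edgeR adjusted p = 4.13e-04), and that beside Manes.02G033500 fell by 1.34 (edgeR adjusted p = 1.39e-05). Under ABA the LRR kinase genes beside Manes.06G137300 and Manes.01G073600 rose by 0.60 and 0.75 (edgeR adjusted p = 2.98e-04 and 2.97e-04), and the others did not pass. Over all genes tested, 35.6% rose under PEG and 32.9% under ABA. Neighbours were looked at after the levels of the members were known.

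**Figure D4:**
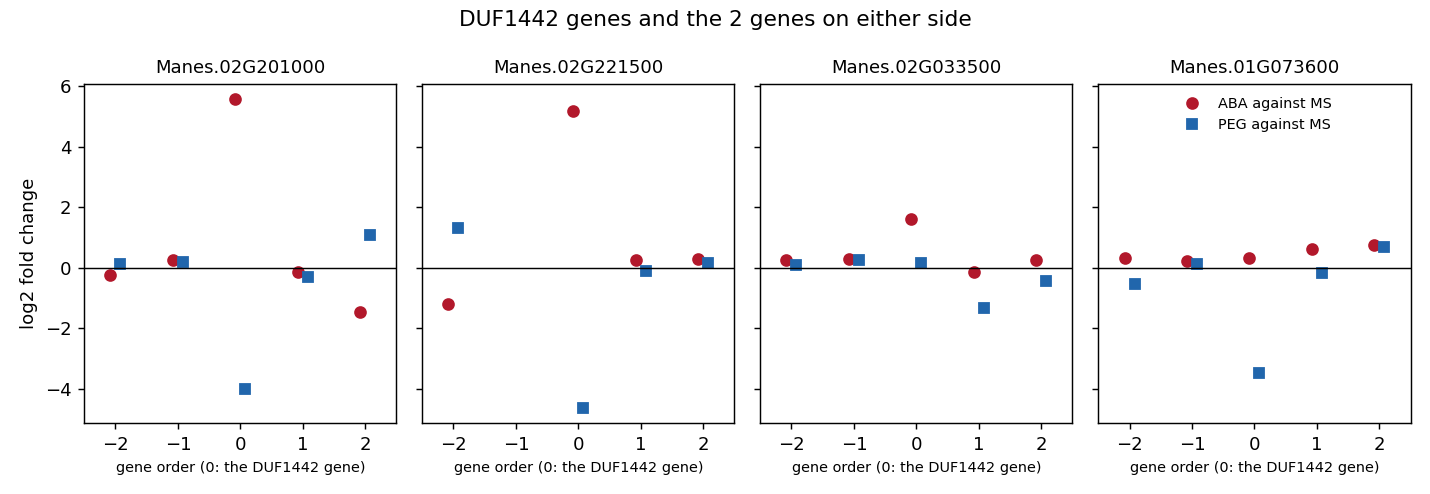
Fitted log2 fold changes against the MS control (y axis) of 4 DUF1442 genes, at 0 on the x axis, and of the 2 genes on either side in gene order, with circles for ABA and squares for PEG. At Manes.02G201000 and Manes.02G221500 the DUF1442 gene stands at 5.57 and 5.17 for ABA while its tested neighbours lie between -1.48 and 0.30, and 1 neighbour of Manes.02G221500 was not tested.

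Genes whose levels ran most in parallel with the trio were sought as a description, among genes with a mean of at least 1 FPKM. The measure was Pearson's r of log2(FPKM + 0.1) over the 9 libraries, which takes no account of the size of a change. Since the libraries form 3 groups, such values mostly reflect the 3 group means. The front genes were chosen by their ABA level, so genes in parallel with them are high under ABA by that choice. The filter on mean FPKM can also be passed through the ABA libraries alone. For Manes.02G201000 the 5 nearest genes, with r of 0.9993 to 0.9998, were described as MEI2-like protein 5 (Manes.15G117100), galactinol synthase 1 (Manes.15G003200), a gene with no description (Manes.14G054200), a tetratricopeptide repeat protein (Manes.11G056100) and Late Embryogenesis Abundant 4-5 (Manes.09G034800). Galactinol synthase makes the galactose donor for raffinose sugars, and LEA proteins protect drying cells. The MEI2-like gene, with the highest r, changed far less than Manes.02G201000. It had 142 ± 0.489 FPKM under ABA, 65.4 ± 1.32 FPKM under PEG and 89.0 ± 0.732 FPKM in the MS control (SD, n = 3 each). The LEA gene had 584 ± 9.76 FPKM under ABA, 10.9 ± 0.168 FPKM under PEG and 50.0 ± 5.64 FPKM in the MS control (SD, n = 3 each). The gene with no description had 239 ± 2.26, 2.11 ± 0.265 and 12.2 ± 0.0622 FPKM under ABA, under PEG and in the MS control (SD, n = 3 each), a narrower range than that of Manes.02G201000.

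For Manes.S098500 the 5 nearest genes had r of 0.9977 to 0.9987 and were matched to or described as the ubiquitin ligase SINAT2 (Manes.03G089500), a MATE efflux protein (Manes.09G135300), a glycine-rich protein (Manes.14G164000), a UDP-glycosyltransferase (Manes.08G033700) and an RmlC-like cupin (Manes.17G114200). The first of them had 67.1 ± 1.68 FPKM under ABA, 6.60 ± 0.533 FPKM under PEG and 15.6 ± 0.708 FPKM in the MS control (SD, n = 3 each). The MATE gene had a narrower range, with 72.5 ± 2.45, 35.9 ± 0.961 and 47.1 ± 1.51 FPKM under ABA, under PEG and in the MS control (SD, n = 3 each). For Manes.02G221500 the nearest gene was Manes.16G109500, described as homology to ABI1, with r of 0.9994. It is a clade A PP2C by its nearest Arabidopsis gene, AT1G72770, and had 179 ± 1.97 FPKM under ABA, 2.13 ± 0.228 FPKM under PEG and 16.3 ± 1.35 FPKM in the MS control (SD, n = 3 each). The copies were not each other's nearest genes. Among 22044 genes, Manes.02G221500 was in place 32 and Manes.S098500 in place 62 in likeness to Manes.02G201000, with r of 0.9975 and 0.9966. Both had 1 or 2 reads in each PEG library, and counting error at this level can lower r. These places therefore do not show that the copies differ.

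Genes of the ABA pathway, listed by their nearest Arabidopsis genes, give the setting in the same libraries. Of 14 clade A PP2C genes, which hold ABA signalling back, 12 rose and 1 fell under ABA, and 2 rose and 10 fell under PEG. The median log2 fold change of this list was 2.32 under ABA and -2.32 under PEG, against 0.00 in both comparisons over all genes tested. Its most abundant member, Manes.07G119400, had 562 ± 6.83 FPKM under ABA, 48.2 ± 0.535 FPKM under PEG and 110 ± 6.95 FPKM in the MS control (SD, n = 3 each). It rose under ABA by 2.42 (edgeR adjusted p = 1.00e-12) and fell under PEG by 1.32 on the log2 scale (edgeR adjusted p = 6.21e-11).

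The counts of the lists can be read against all genes tested, of which 32.9% rose and 33.4% fell under ABA, and 35.6% rose and 35.1% fell under PEG. Of the 7 ABF/AREB/ABI5 bZIP genes tested, the transcription factors at the end of the pathway, 6 rose and none fell under ABA, and 1 rose and 5 fell under PEG, with list medians of 1.40 and -0.33 on the log2 scale. The most abundant, Manes.05G174500, had 409 ± 4.47 FPKM under ABA, 87.9 ± 2.76 FPKM under PEG and 95.9 ± 3.97 FPKM in the MS control (SD, n = 3 each). Of 6 NCED genes, whose enzymes catalyse the key step of ABA synthesis, 5 rose and none fell under ABA, and 1 rose and 3 fell under PEG, with list medians of 4.10 and -0.63. The most abundant NCED gene, Manes.15G102000, rose under ABA by 5.30 on the log2 scale (SE 0.07, edgeR adjusted p = 2.60e-13), a size close to that of the DUF1442 trio. Under PEG it had 5.68 ± 0.617 FPKM, against 5.90 ± 0.332 FPKM in the MS control (SD, n = 3 each), a log2 fold change of -0.19 (edgeR adjusted p = 0.0619) that did not pass.

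The other lists moved less evenly, and several of their counts lie near the shares of all genes just given. Of 12 PYR/PYL receptor genes tested, 2 rose and 8 fell under ABA, and 1 rose and 5 fell under PEG, with list medians of -0.69 and -0.22. The most abundant receptor gene, Manes.05G024300, had log2 fold changes of 0.23 under ABA and -0.62 under PEG (edgeR adjusted p = 2.42e-04 and 4.01e-08). Of 12 SnRK2 kinase genes, 4 rose and 5 fell in each of these comparisons, near the shares of all genes, with list medians of -0.04 and -0.03. The most abundant kinase gene, Manes.12G094000, had log2 fold changes of -0.15 under ABA and -0.06 under PEG (edgeR adjusted p = 0.00619 and 0.209). Of 6 CYP707A genes tested, whose enzymes break ABA down, 3 rose and 3 fell under ABA, and 1 rose and 4 fell under PEG, with list medians of -0.55 and -1.12. The most abundant CYP707A gene, Manes.07G081100, had 13.1 ± 0.659 FPKM under ABA, 5.72 ± 0.640 FPKM under PEG and 124 ± 6.77 FPKM in the MS control (SD, n = 3 each). Its log2 fold change was -3.18 under ABA and -4.57 under PEG (edgeR adjusted p = 9.85e-12 and 7.21e-13). Of the 11 photosynthesis genes tested, 8 fell and none rose under ABA, and 9 rose and 1 fell under PEG. Of the 48 LEA and dehydrin genes tested, 17 rose and 16 fell under ABA, near the shares of all genes, with a list median of 0.05. The part of such broader changes in the levels of the DUF1442 genes was not tested.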

How the data were processed

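Read counts and FPKM values were taken from 1 deposited table of 33033 genes and 9 libraries, whose columns were matched to the samples by the names in their labels. The authors' deposited counts are whole numbers per gene, not normalized, and the authors' FPKM values scale them by gene length and depth. HISAT2 2.0.4 and StringTie 1.3.0 are credited by the submitters' processing notes, with no role for either. No source used here states how reads were counted or whether strand was used, so antisense reads could not be told apart. Counts were kept by filterByExpr (23984 genes), scaled by TMM and tested with edgeR 4.0.16 in R 4.3.3 in 1 fit of the 3 groups, without a replicate term. Replicates differed by more than sampling (median chi-square 0.663 to 0.836, against 0.455 for sampling alone). Named genes were all members, the 5 genes most like each front copy and Manes.02G221500, and the most abundant gene of each pathway list. The members and lists were chosen with earlier results of these data known. The test procedure was checked on simulated data. Alternatives were 2 scalings, 2 filters, DESeq2 1.42.0, limma 3.58.1 on log2(FPKM + 1) and log2(FPKM + 0.1), a replicate block, fits of 2 groups, leaving out each library and a 2-fold threshold.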

Additional observations from a re-analysis of the deposited data

How the results depend on the processing

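The number of DUF1442 genes called, leaving out the front genes where ABA libraries enter, was 2 for ABA against MS, 4 for PEG against MS and 3 for PEG against ABA. With a mean of at least 1 FPKM as the filter, which removes Manes.01G073600 from the test, the last 2 counts were 3 and 2. Under all other alternatives they did not change, and leaving out each library gave 2 to 2, 4 to 4 and 3 to 3. With the replicate number as a block the counts were 2, 4 and 3 as well. Same-numbered libraries showed little shared deviation (correlations of -0.04 to 0.07 over 9 pairs). Low correlations cannot show that the numbers carry no pairing, and the main fit assumed none. No log2 fold change of a member changed its sign, and no tested one changed its side of the threshold. Sizes depended on the setting, and for PEG against ABA the log2 fold change of Manes.02G201000 ran from -9.65 to -7.56. The difference between the front copies, of -0.26 for PEG against MS, had no stable sign. It was 0.13 with a pseudocount of 0.01 and -0.75 with a pseudocount of 1, both chosen after seeing the data, and -0.55 to 0.0434 when 1 library was left out, the last of these without MS replicate 1. Depth limits the PEG values, which rest on 5 to 14 reads over 3 libraries for each of Manes.02G201000, Manes.02G221500, Manes.S098500 and Manes.01G073600.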
